A study of Mus musculus with 12 samples.

Results

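The ligands and receptors of the tumour necrosis factor (TNF) superfamily were followed through 4 populations of cancer-associated fibroblasts sorted from mouse mammary tumours. Members were taken as the protein-coding genes named Tnf or carrying a numbered Tnfsf or Tnfrsf symbol, which gave 32 of the 55487 genes measured. By role they were 12 ligands, 4 receptors with a death domain, 12 receptors that bind TRAF adaptor proteins, and a group of 4 that held the decoy receptors Tnfrsf11b, Tnfrsf22 and Tnfrsf23 together with Tnfrsf26, whose gene lies beside the last pair on chromosome 7. Superfamily genes with other names, such as Fas and Cd40, fell outside that rule and are given after the members.

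All libraries came from tumours of 3 untreated FVB MMTV-PyMT mice aged 10 weeks. In this model an oncogene, the polyoma middle T antigen, is switched on in mammary epithelium by the MMTV promoter, so every population carried the same transgene and came from tumour-bearing animals. No tumour-free tissue was analysed here. The starting gate was live PDGFRb+ cells that lacked CD45, CD31 and EPCAM, and 4 further proteins divided it. The icaf gate held Ly6C+ cells. The m2cafneg gate held Ly6C-, CD146-, PDGFRa+ cells without NCAM, and the m2cafpos gate held the same cells with NCAM. The vcaf gate held Ly6C-, CD146+, PDGFRa- cells. Each mouse, numbered 27, 30 and 31 in the labels, gave 1 library of each population, so n = 3 libraries per population and 12 in all. The question addressed was which members distinguished these populations.

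TNF superfamily ligands are mostly trimeric membrane proteins that can be shed, and they bind receptors with cysteine-rich outer domains. Receptors with a death domain can recruit caspases, receptors that bind TRAF proteins switch on NF-kB and MAP kinases, and decoy receptors bind ligand without passing on a signal. In tumour stroma these proteins are known for carrying signals between fibroblasts, vessel cells, tumour cells and immune cells.

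Libraries held 43898839 to 55363203 reads assigned to genes, so that a single read was worth 0.0181 to 0.0228 CPM, where CPM is a count per 1000000 such reads. Markers of the labelled cell types set the populations apart. The summed level of 6 fibroblast genes averaged 48106 CPM in icaf, 68709.9 in m2cafneg, 128760.0 in m2cafpos and 8483 in vcaf, while 7 pericyte genes summed to 155 to 257 CPM in the first 3 and to 44834 in vcaf. The pericyte sum was thus far higher in vcaf than in the other gates, and Pdgfra in vcaf stood at 6.73 ± 2.07 CPM. In the vcaf library of mouse 31 the pericyte sum was 34048 CPM, below the sum of 20 epithelial genes (41106). Marker transcripts of cell types that were gated out were also found, and unevenly. Whether the sorted cells themselves made some of these transcripts was not tested. The sum of 20 epithelial genes averaged 4515 CPM in icaf (2919 to 7665), 21538 in m2cafneg (14074 to 30593), 4676 in m2cafpos (2206 to 7403) and 28636 in vcaf (19910.1 to 41106), led by Trf and Csn3. The sum of 18 macrophage and monocyte genes averaged 162 CPM in icaf (103 to 229), 819 in m2cafneg (644 to 1039), 192 in m2cafpos (163 to 246) and 1112 in vcaf (603 to 1399.8), led by Cd14 and Lyz2. The sum of 18 endothelial genes averaged 397 CPM in icaf (301 to 468), 571 in m2cafneg (411 to 867), 246 in m2cafpos (211 to 303) and 1597 in vcaf (1429 to 1716), led in vcaf by Esam and Eng. Of these endothelial genes 15 of 18 were higher in vcaf and 1 lower, against 53.3% and 14.2% of all tested genes. In m2cafpos 12 of 18 were lower than in m2cafneg, against 22.6% of all tested genes. In these bulk libraries, fewer cells of a type and less RNA per cell cannot be told apart. Below, CPM values of a population are listed for mice 27, 30 and 31 in that order, a level carries its SD, a log2 fold change its SE, and genome positions refer to GRCm38 (mm10).

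Per kilobase of exon, TNF receptor 1 led every population and the receptors next in order changed from gate to gate. Tnfrsf1a, which encodes TNF receptor 1, was the most abundant member per length everywhere, at 117 ± 9.29 CPM per kilobase in icaf, 96.9 ± 9.94 in m2cafneg, 91.4 ± 4.77 in m2cafpos and 144 ± 6.60 in vcaf. Tnfrsf12a, the TWEAK receptor Fn14, came next in the 3 PDGFRa+ or Ly6C+ gates at 63.8 ± 21.3, 59.3 ± 10.0 and 62.6 ± 9.39 CPM per kilobase. In vcaf the second place went to Tnfrsf21, death receptor 6, at 100.2 ± 17.6 CPM per kilobase, ahead of Tnfrsf12a at 61.2 ± 3.38. Next in order came the decoy receptor Tnfrsf11b in icaf (45.5 ± 37.8), Tnfrsf21 in m2cafneg (29.9 ± 2.44) and Tnfrsf26 in m2cafpos (34.0 ± 12.3). These places were not clear of their neighbours. Tnfrsf26 in m2cafneg, at 26.9 ± 11.7 CPM per kilobase, lay within 1 SD of Tnfrsf21. Tnfrsf11b in icaf was above Tnfrsf12a in mouse 27 and below it in mice 30 and 31. In m2cafpos Tnfrsf11b, at 23.6 ± 5.71 CPM per kilobase, was below Tnfrsf26 in mice 27 and 31 and above it in mouse 30. Among ligands Tnfsf9 (4-1BB ligand) and Tnfsf12 (TWEAK) were the most abundant per length in all 4 populations, with means that differed by less than their SD in m2cafneg (16.4 ± 3.81 and 16.0 ± 5.35 CPM per kilobase).

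Read as shares of the members' summed CPM per kilobase, vcaf lay apart in the decoy and death-domain groups. The decoy group took 16.3% ± 9.18 of the sum in icaf, 13.7% ± 5.16 in m2cafneg, 22.0% ± 3.30 in m2cafpos and 1.39% ± 0.211 in vcaf. The share of this group, which includes Tnfrsf26, was at most 1.63% in the vcaf libraries and at least 7.88% in every other library, so vcaf did not overlap the rest. Tnfrsf11b was the most abundant of the group per kilobase in icaf, and Tnfrsf26 was in m2cafneg, m2cafpos and vcaf. Death-domain receptors took 41.2% ± 8.06, 43.9% ± 3.99, 37.2% ± 2.50 and 63.9% ± 1.78 in the same order, and again vcaf (62.0% to 65.6%) lay above all others. Ligands took 10.6% to 15.9% over the icaf libraries, 11.5% to 18.1% over m2cafneg, 11.6% to 13.1% over m2cafpos and 13.4% to 16.5% over vcaf. The summed level of all members was 1049 ± 84.4 CPM in vcaf and 752 ± 80.8 to 772 ± 132 elsewhere. These shares are descriptions and were not tested.

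**Figure D1:**
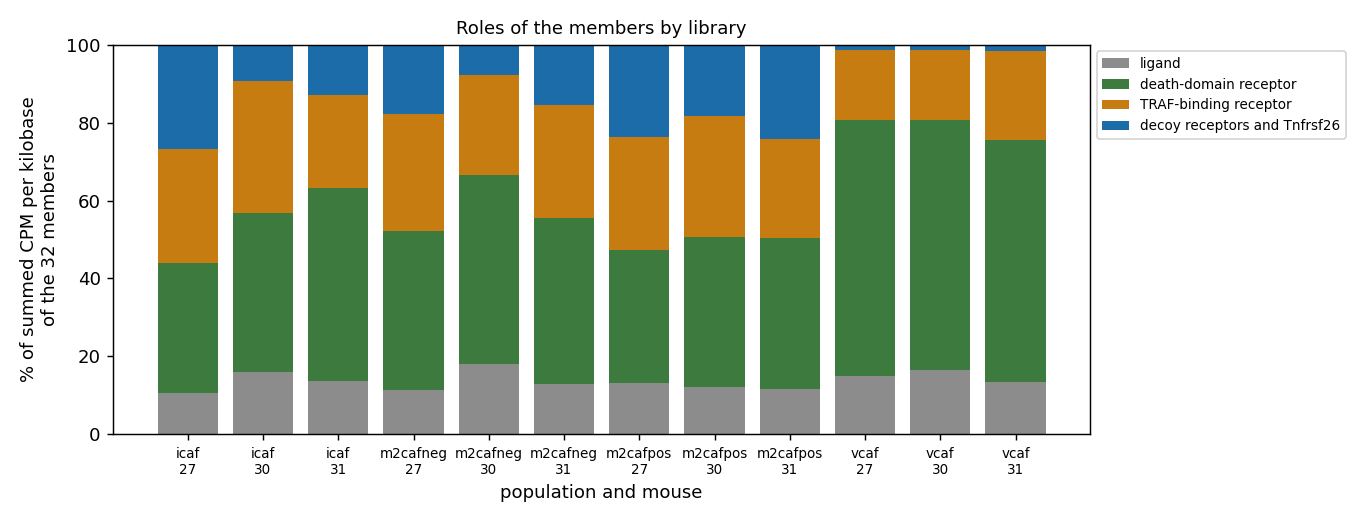
Shares of the summed CPM per kilobase of exon of the 32 members, in percent, by role (colours) for each of the 12 libraries, labelled by population and mouse. The blue share of decoy receptors and Tnfrsf26 is close to the top edge in the 3 vcaf libraries and at least 7.88% in the other 9.

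Members were tested as log2(CPM + 1) with limma among the 15456 genes that reached 1 CPM in at least 3 libraries, and a call means a Benjamini-Hochberg adjusted p below 0.05 over those genes. Of the 32 members 23 passed that filter. In vcaf against the average of all 3 others, 8 of the 23 were higher, 7 were lower and 8 did not pass the test, where 53.3% of all genes were higher and 14.2% were lower. The median log2 fold change of these members was -0.19 and that of all tested genes was 0.38. In icaf against the average of both m2caf gates, 5 were higher and 8 lower, against 12.1% and 14.2% of all genes, with medians of -0.30 for members and -0.01 for all genes. In m2cafpos against m2cafneg, 2 were higher and 5 lower, against 3.51% and 22.6%, with medians of -0.08 and -0.23.

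The comparisons of vcaf and of the m2caf gates shift as a whole with the scaling. With median-of-ratios scaling the median of all genes in the vcaf comparison moved from 0.38 to 0.02, and the members split into 5 higher and 11 lower, where 23.6% and 24.6% of all genes were higher and lower. In m2cafpos against m2cafneg it moved from -0.23 to 0.02, with 3 members higher and 3 lower against 8.79% and 8.29% of all genes. With the epithelial marker level as a covariate, 3 members were higher and 6 lower in vcaf (20.4% and 7.84% of all genes), 1 was higher and 3 lower in icaf (5.78% and 5.83%), and 1 was higher and 0 lower in m2cafpos (0.356% and 0.822%). Counts in icaf fell to 2 higher without the icaf library of mouse 27 and to 3 without that of icaf 31, m2cafneg 31 or m2cafpos 31, and to 5 and 4 lower without icaf 27 and icaf 30. In m2cafpos against m2cafneg the 5 lower became 3 without m2cafneg 27, 2 without m2cafneg 31 and 3 without m2cafpos 30. Blocking on the mouse raised the 2 higher to 4, against 4.68% of all genes, by adding Tnfrsf11b and Tnfsf8. It also added Tnfrsf18 and Tnfrsf19 to the lower members, where the share of all genes is not given.

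**Figure D2:**
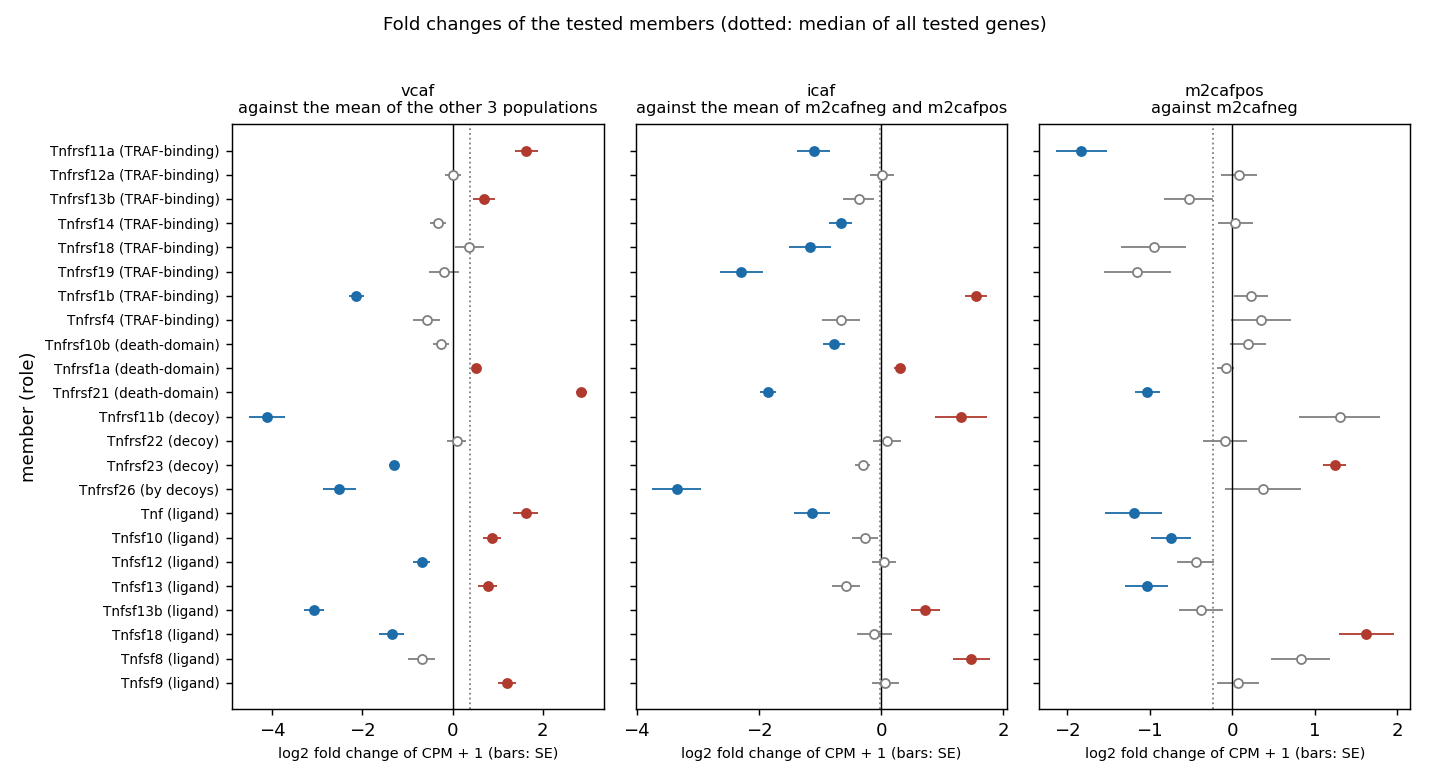
Log2 fold change of CPM + 1 with SE bars for the 23 members that passed the filter, in the 3 main comparisons. Red and blue points are higher and lower at a limma adjusted p below 0.05, open points did not pass, and the dotted line is the median of all tested genes (0.38, -0.01 and -0.23); Tnfrsf21 lies farthest right and Tnfrsf11b farthest left in the vcaf comparison.

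Upstream sequence is shown for 4 members that ran in opposite directions across the populations, chosen after their values were seen. Tnf and Tnfrsf21 were higher in vcaf and lower in icaf, while Tnfrsf1b and Tnfsf13b were lower in vcaf and higher in icaf. Each line gives the 250 bases before the start site, 5′ to 3′, from RefSeq on GRCm38.p6, with motif matches in capitals. The windows are chr17:35202008-35202257 on the minus strand for Tnf, chr17:43016305-43016554 on the plus strand for Tnfrsf21, chr4:145246871-145247120 on the minus strand for Tnfrsf1b and chr8:10006217-10006466 on the plus strand for the first of 2 start sites of Tnfsf13b.
Tnf: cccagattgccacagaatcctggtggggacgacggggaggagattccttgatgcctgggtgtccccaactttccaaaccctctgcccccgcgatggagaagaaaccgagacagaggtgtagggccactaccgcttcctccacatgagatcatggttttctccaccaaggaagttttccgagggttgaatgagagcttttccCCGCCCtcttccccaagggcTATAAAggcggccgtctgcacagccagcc
Tnfrsf21: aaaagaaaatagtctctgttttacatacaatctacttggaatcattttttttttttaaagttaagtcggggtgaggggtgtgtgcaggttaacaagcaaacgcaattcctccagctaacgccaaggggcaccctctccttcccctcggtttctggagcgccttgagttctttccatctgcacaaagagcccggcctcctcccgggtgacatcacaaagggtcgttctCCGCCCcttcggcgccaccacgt
Tnfrsf1b: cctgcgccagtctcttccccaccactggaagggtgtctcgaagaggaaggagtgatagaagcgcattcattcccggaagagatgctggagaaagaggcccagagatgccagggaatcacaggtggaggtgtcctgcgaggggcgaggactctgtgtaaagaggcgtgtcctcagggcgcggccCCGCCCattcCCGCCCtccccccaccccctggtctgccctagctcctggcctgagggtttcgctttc
Tnfsf13b: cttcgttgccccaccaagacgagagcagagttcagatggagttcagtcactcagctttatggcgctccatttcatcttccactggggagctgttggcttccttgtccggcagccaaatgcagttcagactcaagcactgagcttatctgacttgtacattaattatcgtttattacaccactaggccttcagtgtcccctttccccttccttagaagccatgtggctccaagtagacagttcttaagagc
Both strands were searched for 4 motifs, none of which overlapped another in these windows. The TATA box was searched as TATAAA. The GC box was searched as GGGCGG, which reads CCGCCC in all 4 matches shown. The AP-1 site was searched as TGANTCA, and the kappaB consensus by its usual ambiguous letters. In Tnf the capitals mark a GC box that begins 49 bases before the start site and a TATA box 29 bases before it. Tnfrsf21 holds a GC box 23 bases before its start, and Tnfrsf1b holds one at 67 and one at 57 bases. The Tnfsf13b window holds none of the 4, and the window of its second start site has an AP-1 match 127 bases before that start. The GC box occurs in 32.7% of the 32851 promoter windows of this length, the TATA box in 12.4%, the AP-1 motif in 6.75% and the kappaB consensus in 3.90%. RefSeq windows were found for 25 of the 32 members, 29 windows in all, and 12, 5, 5 and 2 of these held the motifs in the same order. A match describes these letters and was not tied to any expression value, and no match says only that the letters are not in the window.

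Among the ligands, 4 of the 8 that passed the filter were higher in vcaf (Tnf, Tnfsf9, Tnfsf10 and Tnfsf13) and 3 were lower (Tnfsf12, Tnfsf13b and Tnfsf18), where 53.3% of all genes were higher and 14.2% lower. Against m2cafneg alone Tnfsf9, Tnfsf12 and Tnfsf13b passed, where 37.9% of all genes did. Tnf (0.65 ± 0.34, limma adjusted p = 0.144), Tnfsf10 (0.41 ± 0.24, 0.191), Tnfsf13 (0.07 ± 0.26, 0.843) and Tnfsf18 (-0.58 ± 0.33, 0.183) did not. Tnf (ENSMUSG00000024401, chromosome 17, 35199381 to 35202007), the inflammatory cytokine that names the family, stood at 0.589, 0.432 and 1.09 CPM in icaf, 4.98, 3.10 and 5.97 in m2cafneg, 1.35, 0.593 and 2.80 in m2cafpos and 4.78, 10.1 and 9.43 in vcaf. The icaf and m2cafpos libraries were low and overlapped each other, the m2cafneg and vcaf libraries were high and overlapped each other, and no library of the first pair reached the second. Its log2 fold change was 1.63 ± 0.28 in vcaf (limma adjusted p = 0.000311), -1.13 ± 0.29 in icaf (adjusted p = 0.0139) and -1.19 ± 0.34 in m2cafpos against m2cafneg (adjusted p = 0.0239). The icaf call ended with no filter (limma adjusted p = 0.0522) and without icaf 27 (0.059) or icaf 30 (0.0717), and the m2cafpos call with no filter (0.0798), median-of-ratios scaling (0.0632) or edgeR (0.123) and without m2cafneg 27 (0.0551), m2cafneg 31 (0.0855), m2cafpos 27 (0.0708) or m2cafpos 30 (0.0912). Tnf ran beside the epithelial, macrophage and endothelial sums, whose means are also lower in icaf and m2cafpos than in m2cafneg and vcaf, and with the epithelial level as a covariate its vcaf difference was 0.51 (limma adjusted p = 0.29), its icaf difference was -0.42 (0.389), and its difference between m2cafpos and m2cafneg turned sign to 0.071 (0.95). What these markers contribute cannot be told apart from the populations.

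Tnfsf9, Tnfsf12 and Tnfsf13b were ligands whose vcaf libraries did not overlap any other gate. Tnfsf9 (ENSMUSG00000035678, chromosome 17, 57105325 to 57107757), the 4-1BB ligand, which costimulates T cells, stood at 22.8, 31.5 and 15.8 CPM in icaf, 19.5, 26.7 and 17.4 in m2cafneg, 28.4, 18.1 and 20.6 in m2cafpos and 55.7, 61.3 and 40.2 in vcaf. Each vcaf library was above all 9 others, which overlapped. The log2 fold change in vcaf was 1.21 ± 0.21 (limma adjusted p = 0.000324), and against single populations it lay between 1.16 ± 0.25 for icaf and 1.27 ± 0.25 for m2cafneg. Against m2cafpos it was 1.20 ± 0.25 and was 0.65 (adjusted p = 0.0598) with median-of-ratios scaling and 0.69 (0.0667) with edgeR. Exons of Tnfsf9 share 14.9% of their bases with a gene on the other strand (Gm11110), and reads of the pair may not be separable.

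Tnfsf13b (ENSMUSG00000031497, chromosome 8, 10006467 to 10039072), BAFF, a survival factor for B cells, ran the other way, at 20.2, 14.7 and 29.9 CPM in icaf, 10.1, 20.6 and 13.1 in m2cafneg, 9.81, 12.5 and 9.48 in m2cafpos and 0.761, 0.906 and 0.843 in vcaf. All vcaf libraries were below 1 CPM and all others above 9. It was lower in vcaf by -3.08 ± 0.22 on the log2 scale (limma adjusted p = 1.87e-07), and this held with every library left out in turn. In icaf it was higher than the average of m2cafneg and m2cafpos, at 0.73 ± 0.23 (limma adjusted p = 0.0362), although icaf and m2cafneg overlapped. Against m2cafneg alone the difference was 0.54 ± 0.27 and did not pass (limma adjusted p = 0.154), while against m2cafpos it was 0.92 ± 0.27 (0.0259). The call against the average ended with no filter (limma adjusted p = 0.0931), with the epithelial covariate (0.169) and without icaf 27, icaf 31, m2cafneg 27, m2cafneg 31, m2cafpos 27 or m2cafpos 31 (adjusted p = 0.0622 to 0.175).

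Tnfsf12 (ENSMUSG00000097328, chromosome 11, 69686250 to 69695849), TWEAK, which acts through Fn14 in wound repair, stood at 18.8, 22.9 and 21.0 CPM in icaf, 21.1, 33.5 and 18.3 in m2cafneg, 19.4, 16.4 and 15.6 in m2cafpos and 14.5, 14.3 and 8.72 in vcaf. The vcaf libraries were all lowest, and the other 3 populations overlapped. Its log2 fold change in vcaf was -0.69 ± 0.19 (limma adjusted p = 0.00592) and -0.35 (adjusted p = 0.444) with the epithelial covariate. Neighbouring Tnfsf13, APRIL, a ligand for TACI and BCMA on B-lineage cells, ran the opposite way, at 1.30 ± 0.674 CPM in icaf, 3.83 ± 0.938 in m2cafneg, 1.33 ± 0.192 in m2cafpos and 4.16 ± 1.64 in vcaf. It was higher in vcaf by 0.78 ± 0.21 (limma adjusted p = 0.00632, 0.052 without vcaf 31, 0.0765 with median-of-ratios scaling, 0.0686 with edgeR and 0.944 with the epithelial covariate) and lower in m2cafpos than m2cafneg by -1.04 ± 0.26 (adjusted p = 0.0141, 0.0511 with no filter, 0.0589 with edgeR, 0.82 with the epithelial covariate and 0.0547 without m2cafneg 31). These genes lie 465 bases apart, and an annotated read-through gene, Tnfsfm13, shares 48.3% of the exon bases of Tnfsf12 and 60.0% of those of Tnfsf13, so reads of the 3 may not be separable.

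Tnfsf18 and Tnfsf8 were low in CPM and highest in different gates. Tnfsf18 (ENSMUSG00000066755, chromosome 1, 161494655 to 161505290), the GITR ligand, which costimulates T cells, stood at 3.53, 0.806 and 3.80 CPM in icaf, 1.63, 0.607 and 1.16 in m2cafneg, 6.05, 5.80 and 4.56 in m2cafpos and 0.681, 0.370 and 0.196 in vcaf. Every m2cafpos library was above every library of the other 3 populations, and vcaf overlapped only m2cafneg. The log2 fold change was 1.62 ± 0.33 in m2cafpos against m2cafneg (limma adjusted p = 0.00599) and -1.35 ± 0.27 in vcaf (adjusted p = 0.000928). Both kept their size with the epithelial covariate (1.597 and -1.329) but no longer passed (adjusted p = 0.188 and 0.0676).

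Tnfsf8 (ENSMUSG00000028362, chromosome 4, 63831308 to 63861347), the CD30 ligand, stood at 10.6, 4.01 and 8.77 CPM in icaf, 1.55, 0.697 and 1.56 in m2cafneg, 4.17, 3.13 and 1.89 in m2cafpos and 2.80, 1.52 and 0.823 in vcaf. The icaf libraries were above all m2cafneg and vcaf libraries and overlapped m2cafpos. It was higher in icaf by 1.48 ± 0.31 on the log2 scale (limma adjusted p = 0.0035, 0.07 with the epithelial covariate). In vcaf its difference of -0.69 ± 0.29 missed the threshold (adjusted p = 0.051, 0.0165 with the mouse as a block), and m2cafpos was above m2cafneg in 3 of 3 mice (0.83 ± 0.35, adjusted p = 0.103, 0.0376 with the block). The vcaf difference also passed with median-of-ratios scaling (limma adjusted p = 0.014) or edgeR (0.0327) and without icaf 30 (0.0143), m2cafneg 30 (0.0376), m2cafpos 31 (0.0357) or vcaf 27 (0.0228).

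The last ligand past the filter was Tnfsf10, which encodes TRAIL and triggers apoptosis through death receptors. It was low everywhere, at 0.816 ± 0.426 CPM in icaf, 1.77 ± 0.237 in m2cafneg, 0.663 ± 0.158 in m2cafpos and 2.82 ± 1.16 in vcaf. It was higher in vcaf by 0.87 ± 0.20 (limma adjusted p = 0.00211, 0.566 with the epithelial covariate). In m2cafpos against m2cafneg it was lower by -0.74 ± 0.24 (limma adjusted p = 0.0415), a call that ended with no filter (0.142), median-of-ratios scaling (0.1), edgeR (0.109) or the epithelial covariate (0.97), and without icaf 30 or any of the 6 libraries compared (0.0506 to 0.122).

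**Figure D3:**
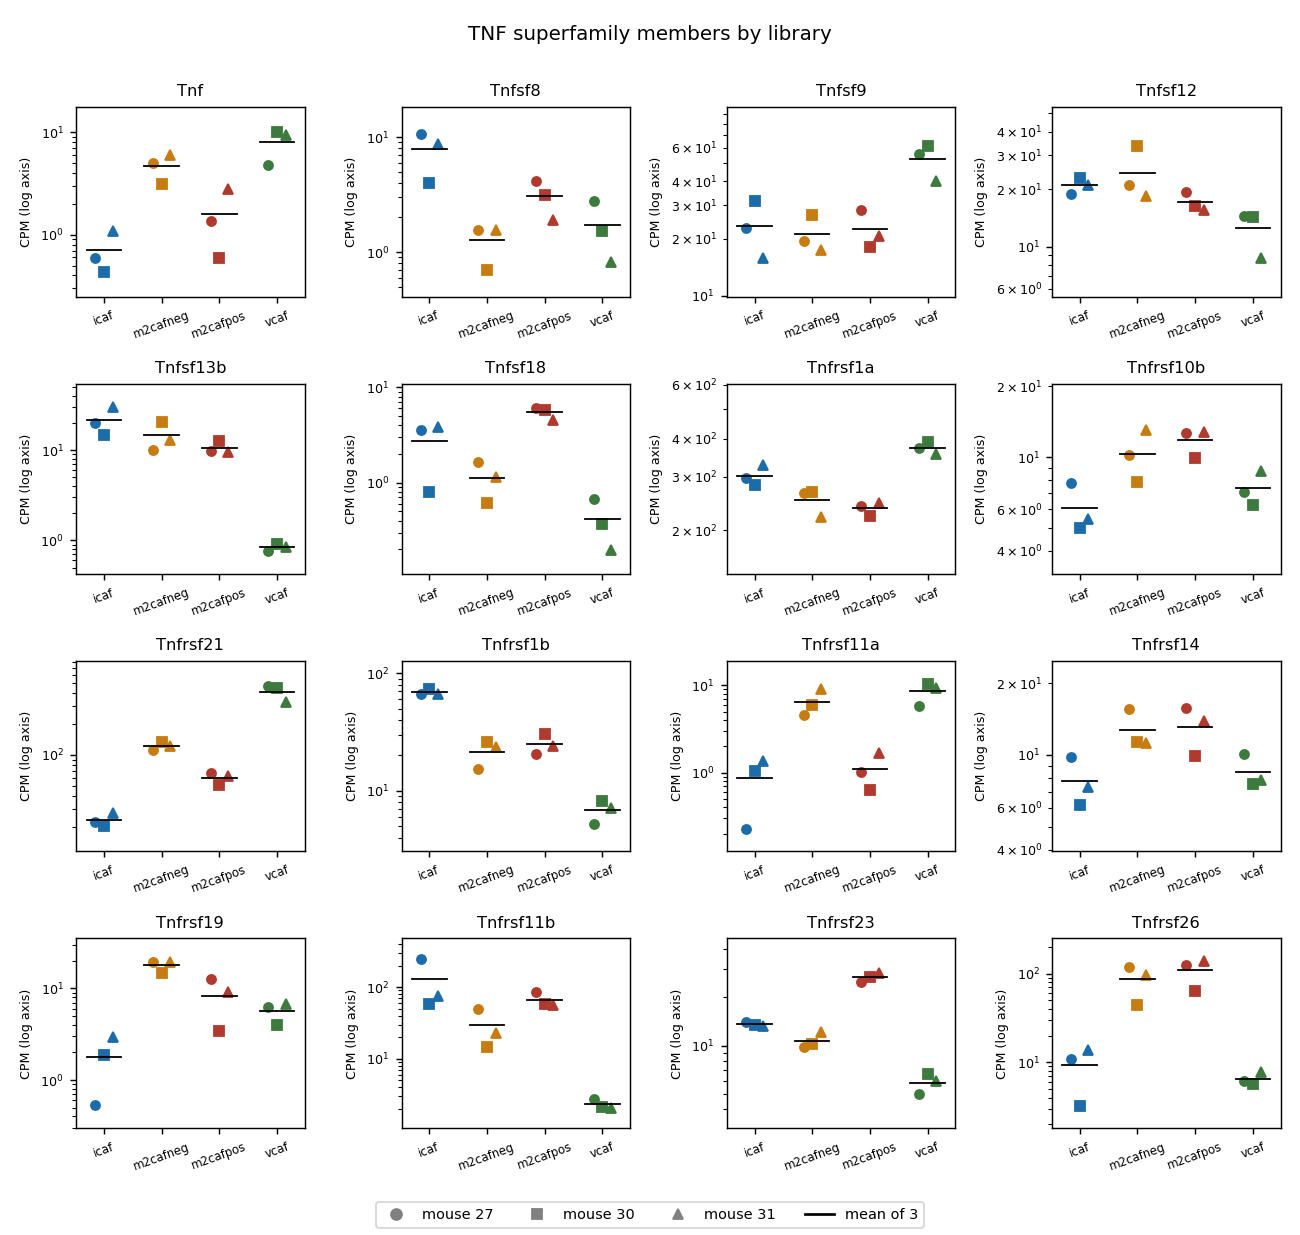
CPM (log axis, its range set per panel) of the 16 members that passed a main comparison and averaged at least 5 CPM in a population, for each population. Points are libraries, with the mouse as the symbol, and bars are means of 3; vcaf is separated from all other populations in the panels of Tnfsf9, Tnfsf12, Tnfsf13b, Tnfrsf1a, Tnfrsf21, Tnfrsf1b, Tnfrsf11b and Tnfrsf23.

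Death-domain receptors held the largest rise in vcaf among the members. Tnfrsf21 (ENSMUSG00000023915, chromosome 17, 43016555 to 43089189), death receptor 6, which binds amyloid precursor protein and is known for axon pruning and endothelial necroptosis, stood at 22.2, 20.3 and 27.0 CPM in icaf, 113, 133 and 123 in m2cafneg, 66.2, 51.1 and 62.0 in m2cafpos and 462, 443 and 329 in vcaf. The 4 populations did not overlap and ran in the same order in each of 3 mice: icaf lowest, then m2cafpos, m2cafneg and vcaf. Its log2 fold change was 2.86 ± 0.12 in vcaf (limma adjusted p = 2.48e-09), -1.85 ± 0.13 in icaf (adjusted p = 1.51e-06) and -1.03 ± 0.15 in m2cafpos against m2cafneg (adjusted p = 0.0016). The order icaf, m2cafpos, m2cafneg, vcaf is also that of the mean epithelial sum. Between icaf and m2cafpos on one side and m2cafneg and vcaf on the other, the populations and that marker level cannot be told apart. Within each of these pairs the epithelial sums overlapped. Tnfrsf21 differed there by -1.33 ± 0.15 in icaf against m2cafpos (limma adjusted p = 4.63e-05) and 1.73 ± 0.15 in vcaf against m2cafneg (2.33e-06). The vcaf and icaf calls held with the epithelial covariate, and the m2cafpos call did not (-0.88, adjusted p = 0.127).

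Tnfrsf1a (ENSMUSG00000030341, chromosome 6, 125349362 to 125362484) differed by small amounts. It stood at 297, 282 and 329 CPM in icaf, 265, 266 and 221 in m2cafneg, 241, 223 and 247 in m2cafpos and 373, 391 and 357 in vcaf. No vcaf library overlapped another population, and icaf lay above both m2caf gates without overlap. The log2 fold change in vcaf was 0.51 ± 0.084 (limma adjusted p = 0.000225), close to the median of 0.38 over all genes, and with median-of-ratios scaling or edgeR it was 0.10 (adjusted p = 0.427 and 0.421). Against icaf alone the sign turned under these 2 settings, from 0.31 ± 0.10 (limma adjusted p = 0.0212) to -0.11 and -0.10, and the call also ended without icaf 27 (0.0554), icaf 30 (0.0833) or vcaf 30 (0.0636). In icaf it was 0.31 ± 0.089 (limma adjusted p = 0.0221, 0.11 with the epithelial covariate, 0.0622 without icaf 27 and 0.0997 without icaf 31).

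Tnfrsf10b (ENSMUSG00000022074, chromosome 14, 69767472 to 69784411), the mouse death receptor for TRAIL, stood at 7.79, 4.99 and 5.44 CPM in icaf, 10.2, 7.83 and 13.0 in m2cafneg, 12.7, 9.88 and 12.8 in m2cafpos and 7.09, 6.25 and 8.76 in vcaf. The icaf libraries were below all m2cafneg and m2cafpos libraries and overlapped vcaf. It was lower in icaf by -0.77 ± 0.18 (limma adjusted p = 0.00852, 0.158 with the epithelial covariate and 0.0557 without icaf 30).

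Of the TRAF-binding receptors, Tnfrsf1b was higher in icaf and lower in vcaf. Tnfrsf1b (ENSMUSG00000028599, chromosome 4, 145213463 to 145246870), TNF receptor 2, which prefers membrane-bound TNF and lacks a death domain, stood at 66.9, 73.7 and 67.2 CPM in icaf, 15.2, 25.8 and 23.7 in m2cafneg, 20.6, 30.5 and 24.0 in m2cafpos and 5.25, 8.23 and 7.15 in vcaf. The icaf libraries were above and the vcaf libraries below all others, and the m2caf gates overlapped. Its log2 fold change was -2.13 ± 0.17 in vcaf (limma adjusted p = 5.16e-07) and 1.56 ± 0.18 in icaf (adjusted p = 4.69e-05), and both calls held under the 7 other settings and with each library left out. Because Tnfrsf1a varied less, the ratio of Tnfrsf1a to Tnfrsf1b per kilobase ran from 6.46 ± 0.792 in icaf through 14.4 ± 3.29 in m2cafpos and 18.3 ± 6.53 in m2cafneg to 82.8 ± 19.1 in vcaf. The ranges of the m2caf gates overlapped (10.8 to 17.2 in m2cafpos and 13.8 to 25.7 in m2cafneg), while the range of icaf (5.63 to 7.21) and that of vcaf (70.1 to 105) lay apart from both.

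Tnfrsf11a and Tnfrsf19 were lower in icaf. Tnfrsf11a (ENSMUSG00000026321, chromosome 1, 105780718 to 105847981), RANK, the receptor for RANKL that drives osteoclasts and mammary progenitors, stood at 0.228, 1.04 and 1.37 CPM in icaf, 4.61, 5.94 and 9.08 in m2cafneg, 1.03, 0.630 and 1.66 in m2cafpos and 5.85, 10.4 and 9.47 in vcaf. RANK libraries formed the same high and low pairs of populations as Tnf. The log2 fold change was 1.63 ± 0.25 in vcaf (limma adjusted p = 0.000152), -1.10 ± 0.27 in icaf (adjusted p = 0.0092, 0.0656 without icaf 27) and -1.83 ± 0.31 in m2cafpos against m2cafneg (adjusted p = 0.0028). With the epithelial covariate these were 0.65, -0.48 and -0.72 (limma adjusted p = 0.155, 0.283 and 0.356), and the populations and that marker level cannot be told apart.

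Tnfrsf19 (ENSMUSG00000060548, chromosome 14, 60963875 to 61046490), TROY, a receptor linked to Wnt signalling, stood at 0.532, 1.87 and 2.93 CPM in icaf, 19.5, 14.9 and 19.2 in m2cafneg, 12.5, 3.47 and 9.09 in m2cafpos and 6.21, 3.96 and 6.76 in vcaf. All icaf libraries were lowest and all m2cafneg libraries highest, while m2cafpos and vcaf overlapped. It was lower in icaf by -2.29 ± 0.35 (limma adjusted p = 0.000383), a call that held with the epithelial covariate. Between m2cafpos and m2cafneg it differed by -1.15 ± 0.40 and missed the threshold (limma adjusted p = 0.0524). That difference passed with the mouse as a block (0.0251), with a filter of 5 CPM (0.0494) or without icaf 27 (0.0363), icaf 31 (0.0446) or m2cafpos 27 (0.0379), and its sign turned with the epithelial covariate (0.31, adjusted p = 0.789).

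**Figure D4:**
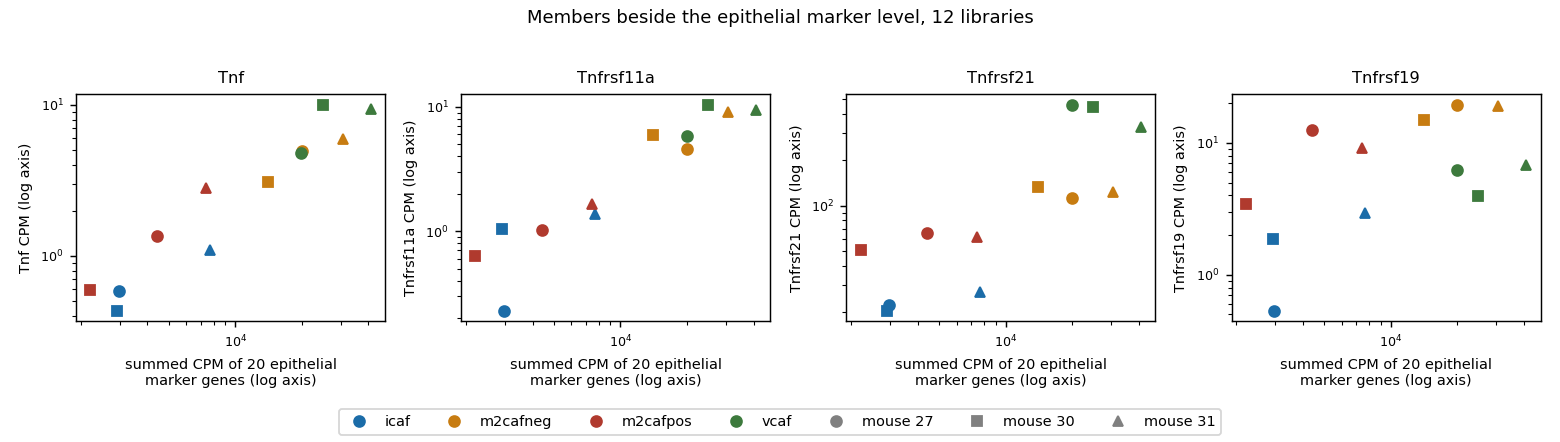
CPM of Tnf, Tnfrsf11a, Tnfrsf21 and Tnfrsf19 (log axes) against the summed CPM of 20 epithelial marker genes (log axis) in the 12 libraries, with colours for populations and symbols for mice. Tnf and Tnfrsf11a are low in the icaf and m2cafpos libraries, whose sums are at most 7665, and high in the others, while vcaf is above m2cafneg for Tnfrsf21 and below it for Tnfrsf19.

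Tnfrsf14 and Tnfrsf18 were also lower in icaf. Tnfrsf14 (ENSMUSG00000042333, chromosome 4, 154921933 to 154928563), HVEM, a receptor for LIGHT and BTLA, stood at 9.84, 6.19 and 7.37 CPM in icaf, 15.5, 11.3 and 11.2 in m2cafneg, 15.7, 9.84 and 13.9 in m2cafpos and 10.1, 7.58 and 7.88 in vcaf. The icaf libraries were below both m2caf gates and overlapped vcaf. Its log2 fold change in icaf was -0.66 ± 0.19 (limma adjusted p = 0.0195, 0.143 with the epithelial covariate, 0.112 without icaf 30 and 0.0578 without icaf 31). In vcaf it differed by -0.32 ± 0.17 (limma adjusted p = 0.123) and was called lower with the mouse as a block (0.0283), with median-of-ratios scaling (-0.69, 0.00599) and with edgeR (-0.77, 0.00808). Tnfrsf18, GITR on regulatory T cells, averaged 0.747 ± 0.151 CPM in icaf, 4.87 ± 2.65 in m2cafneg, 1.93 ± 0.989 in m2cafpos and 3.13 ± 1.94 in vcaf. It was lower in icaf by -1.16 ± 0.34 (limma adjusted p = 0.0255), and this ended with no filter (0.0896), with the epithelial covariate (0.459) and without icaf 27 (0.0793), icaf 30 (0.0954), m2cafpos 27 (0.0538) or m2cafpos 31 (0.0535). Against m2cafneg alone the icaf difference of Tnfrsf18 was -1.64 ± 0.40 (limma adjusted p = 0.00841). Against m2cafpos alone it was -0.68 ± 0.40 and did not pass (limma adjusted p = 0.249). An antisense gene, Gm16008, covers 27.2% of the exon bases of Tnfrsf18.

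Tnfrsf12a (ENSMUSG00000023905, chromosome 17, 23675445 to 23677468), Fn14, was even across the gates, at 123 ± 41.1 CPM in icaf, 115 ± 19.4 in m2cafneg, 121 ± 18.1 in m2cafpos and 118 ± 6.53 in vcaf. The log2 difference was 0.01 ± 0.18, 0.02 ± 0.19 and 0.08 ± 0.22 in the 3 main comparisons, and no adjusted p was below 0.818. Its vcaf value lay below the median of 0.38 over all genes. Tnfrsf13b (TACI) was higher in vcaf by 0.70 ± 0.24 (limma adjusted p = 0.0222) at only 1.11 ± 0.770 CPM, and this did not pass with no filter (0.0537), median-of-ratios scaling (0.0599) or the epithelial covariate (0.715). It reached 1 CPM only in vcaf 30, vcaf 31 and m2cafneg 31, so it entered the test mainly through the gate where it was highest. It is counted among the 8 members higher in vcaf, and it could not be tested when any of those libraries was left out. Tnfrsf4 (OX40) averaged 0.810 ± 0.122 CPM in icaf, 1.74 ± 1.35 in m2cafneg, 2.28 ± 0.776 in m2cafpos and 0.776 ± 0.871 in vcaf and passed none of the main comparisons.

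The decoy group was low in vcaf, with 3 of 4 members lower and Tnfrsf22 not past the test, where 14.2% of all genes were lower, or 24.6% with median-of-ratios scaling. Tnfrsf11b (ENSMUSG00000063727, chromosome 15, 54250619 to 54278484), osteoprotegerin, a secreted decoy for RANKL and TRAIL, stood at 250.6, 57.7 and 76.1 CPM in icaf, 49.98, 14.6 and 23.3 in m2cafneg, 84.9, 57.9 and 56.3 in m2cafpos and 2.74, 2.14 and 2.04 in vcaf. All 9 libraries of the PDGFRa+ and Ly6C+ gates were above all vcaf libraries, and the icaf library of mouse 27 was the highest. The difference in vcaf was -4.11 ± 0.40 on the log2 scale (limma adjusted p = 3.13e-06), the largest of any member in a main comparison. In icaf it was 1.31 ± 0.42 (limma adjusted p = 0.0378), but 0.67 (0.22) without icaf 27, and the call also ended with no filter (0.12), with the epithelial covariate (0.325) and without m2cafneg 30 (0.0627), m2cafneg 31 (0.0638), m2cafpos 30 (0.0618) or m2cafpos 31 (0.073). Within each mouse m2cafpos was above m2cafneg, by 1.30 ± 0.49 (limma adjusted p = 0.0671, 0.00527 with the mouse as a block, 0.0205 without icaf 27, 0.0234 without m2cafneg 27 and 0.0422 with median-of-ratios scaling).

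Its ligand Tnfsf11, RANKL, was low, at 0.152, 0.0786 and 0.178 CPM in icaf, 0.849, 0.180 and 0.494 in m2cafneg, 1.26, 0.964 and 0.592 in m2cafpos and 0.320, 0.148 and 0.0784 in vcaf. These values rest on 8, 4 and 9 reads in icaf and 39, 8 and 26 in m2cafneg. In m2cafpos there were 70, 52 and 26 reads, and in vcaf 16, 8 and 4. The m2cafpos library of mouse 27 was the only one above 1 CPM, and the gene did not pass the filter. Osteoprotegerin RNA exceeded RANKL RNA per kilobase in every library, with ratios of 1309, 583 and 339 in icaf, 46.7, 64.5 and 37.4 in m2cafneg, 53.3, 47.7 and 75.4 in m2cafpos and 6.79, 11.5 and 20.6 in vcaf. The icaf libraries were highest, with mouse 27 well above the others, and the vcaf libraries were lowest. The ratios at both ends rest on few RANKL reads, 4 to 9 in icaf and 4 to 16 in vcaf.

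The other members of the group are neighbours on chromosome 7, yet each had its own pattern. Tnfrsf26 (ENSMUSG00000045362, chromosome 7, 143607659 to 143628722) and Tnfrsf22 lie 6.083 kb apart, and Tnfrsf22 and Tnfrsf23 16.147 kb apart, all on the minus strand. Tnfrsf26 stood at 10.9, 3.24 and 13.7 CPM in icaf, 118, 44.5 and 97.4 in m2cafneg, 126, 64.3 and 137 in m2cafpos and 6.17, 5.64 and 7.72 in vcaf. Both m2caf gates were above icaf and vcaf without overlap, and the library of mouse 30 was lowest in each of icaf, m2cafneg, m2cafpos and vcaf. Its log2 fold change was -2.51 ± 0.37 in vcaf (limma adjusted p = 0.000114) and -3.35 ± 0.40 in icaf (adjusted p = 5.82e-05).

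Tnfrsf23 (ENSMUSG00000037613, chromosome 7, 143665809 to 143685872), a mouse decoy receptor for TRAIL, stood at 14.0, 13.5 and 13.3 CPM in icaf, 9.84, 10.2 and 12.2 in m2cafneg, 24.7, 26.8 and 28.4 in m2cafpos and 4.99, 6.65 and 5.98 in vcaf. The 4 populations did not overlap, with m2cafpos highest and vcaf lowest. It was lower in vcaf by -1.29 ± 0.11 (limma adjusted p = 1.33e-06) and higher in m2cafpos than m2cafneg by 1.24 ± 0.14 (adjusted p = 0.000459), and both calls held under the 7 other settings and with each library left out. Tnfrsf22 (ENSMUSG00000010751, chromosome 7, 143634806 to 143649661), the other decoy for TRAIL, was even, at 4.04 ± 1.24 CPM in icaf, 3.87 ± 1.29 in m2cafneg, 3.61 ± 1.40 in m2cafpos and 4.06 ± 0.649 in vcaf, and its adjusted p was at least 0.712 in the main comparisons. The ratio of Tnfrsf23 to Tnfrsf22 per kilobase was 3.79 ± 1.03, 3.09 ± 0.687, 8.70 ± 3.28 and 1.56 ± 0.275 in icaf, m2cafneg, m2cafpos and vcaf. The 3 genes are related in sequence, and an antisense gene, E230032D23Rik, overlaps 4.14% of Tnfrsf23 and 3.33% of Tnfrsf26 exon bases, so some reads may be shared.

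The 9 members below the filter were Tnfsf4, Tnfsf11, Tnfsf14, Tnfsf15, Tnfrsf8, Tnfrsf9, Tnfrsf13c, Tnfrsf17 and Tnfrsf25. They include the receptors or ligands of lymphocytes OX40 ligand, LIGHT, CD30, 4-1BB, the BAFF receptor and BCMA. Tnfrsf17 had no read in 10 of 12 libraries, and Tnfsf4 had none in any m2cafneg or vcaf library. A count of 0 allows up to 3 reads, or 0.0542 to 0.0683 CPM by library, for counting error only. Tnfsf15, TL1A, had reads in every library and averaged 0.791 ± 0.192 CPM in icaf against 0.168 ± 0.0533 in m2cafpos, which was not tested. The sum of 16 lymphocyte markers averaged 3.68 CPM in icaf (2.11 to 5.33) and 16.8 in vcaf (14.4 to 19.7).

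Pairs of populations were compared as well. Members past the test numbered 12 of 23 between icaf and m2cafneg, where 29.7% of all genes passed, 10 between icaf and m2cafpos (23.9%), 17 between vcaf and icaf (59.9%), 10 between vcaf and m2cafneg (37.9%) and 17 between vcaf and m2cafpos (67.9%). With the epithelial covariate 1 member passed between icaf and m2cafneg (2.3% of all genes), 6 between vcaf and icaf (15.9%) and 9 between vcaf and m2cafpos (26.3%), and without m2cafpos 31 the icaf and m2cafpos pair gave 6. The pairs share libraries and are not independent of the main comparisons.

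A list of 15 genes held superfamily genes with other names and the adaptor Edaradd, which is neither a ligand nor a receptor. Of these, 9 passed the filter. In vcaf 3 were higher (Ltb, Ltbr and Edaradd) and 3 lower (Cd40, Eda and Eda2r), against 53.3% and 14.2% of all genes. Cd40, which licenses antigen-presenting cells, stood at 3.49, 0.708 and 3.29 CPM in icaf, 33.3, 12.01 and 30.2 in m2cafneg, 34.4, 19.8 and 26.7 in m2cafpos and 2.38, 3.07 and 2.70 in vcaf. Both m2caf gates lay above icaf and vcaf without overlap, and mouse 30 was lowest in icaf and in both m2caf gates, as for Tnfrsf26. It was lower in icaf by -3.00 ± 0.35 (limma adjusted p = 5.36e-05) and in vcaf by -1.79 ± 0.33 (adjusted p = 0.00054). Eda2r, a receptor for an ectodysplasin isoform, averaged 7.45 ± 1.52 CPM in m2cafneg, 7.77 ± 0.740 in m2cafpos and 1.28 ± 0.986 in vcaf and was lower in vcaf by -1.82 ± 0.22 (limma adjusted p = 1.83e-05). Its ligand Eda was lower there by -0.87 ± 0.14 (limma adjusted p = 0.000196, 0.0635 with the epithelial covariate).

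The lymphotoxin beta receptor gene Ltbr was abundant, at 134 ± 8.06, 131 ± 14.0, 120.3 ± 9.97 and 166 ± 19.5 CPM in the same order, with a vcaf difference of 0.37 ± 0.095 (limma adjusted p = 0.00464), below the median of 0.38 over all genes. Fas, which carries a death domain, averaged 29.1 ± 2.42, 23.6 ± 5.02, 24.9 ± 3.65 and 21.0 ± 1.31 CPM and passed none of the 3 main comparisons. Ngfr varied most among mice, from 1.46 to 138 CPM over the libraries, and also passed none. Relt reached 3.11 ± 1.11 CPM in vcaf, while Ltb and Edaradd averaged at most 1.37 ± 0.352 and 1.22 ± 0.208 CPM in any gate. Ltb and Edaradd reached 1 CPM only in m2cafneg and vcaf libraries, so they passed the filter through those gates. In icaf 2 of 9 were lower (Cd40 and Edaradd) and 0 higher, against 14.2% and 12.1% of all genes. In m2cafpos against m2cafneg 2 were lower (Ltb and Edaradd) and 0 higher, against 22.6% and 3.51% of all genes. These last counts changed with the libraries. In icaf 1 was lower without icaf 27, icaf 30, icaf 31, m2cafneg 30, vcaf 27 or any m2cafpos library. In m2cafpos 0 were lower without m2cafneg 30, m2cafpos 30 or m2cafpos 31, and 1 was lower without any icaf library, m2cafneg 31, m2cafpos 27 or vcaf 31.

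Signal carriers downstream of the receptors were mostly higher in vcaf, in step with genes at large. Of 27 receptor-proximal adaptors and kinases 18 were higher in vcaf and 2 lower, against 53.3% and 14.2% of all genes, with a median log2 fold change of 0.36 against 0.38 for all genes. With median-of-ratios scaling 7 rose and 3 fell, against 23.6% and 24.6% of all genes. Map3k5 (the stress kinase ASK1), Traf6 and Traf4 had the smallest adjusted p, with log2 fold changes of 1.37 ± 0.17, 0.93 ± 0.12 and 1.60 ± 0.22. Traf4, which is known from epithelium, ended its call with the epithelial covariate (0.77, limma adjusted p = 0.0736). In icaf 3 were higher and 2 lower (12.1% and 14.2% of all genes), and in m2cafpos against m2cafneg 2 were higher and 6 lower (3.51% and 22.6%). The last count fell to 2 without m2cafneg 30 and to 3 without m2cafneg 31 or m2cafpos 30. It was 10 with the mouse as a block, where the share of all genes is not given, so that count stands alone. The 3 higher in icaf were 0 without icaf 27, 1 without icaf 30, icaf 31, m2cafneg 27, m2cafneg 31, m2cafpos 27 or m2cafpos 31, and the 2 lower were 0 without icaf 30 and 1 without icaf 27, m2cafneg 31, m2cafpos 27 or m2cafpos 31. The 2 lower in vcaf (Tradd and Map3k14) were 1 without icaf 31, m2cafpos 30 or any vcaf library, and the 2 higher in m2cafpos (Ripk3 and Casp8) were 1 without m2cafneg 30 or m2cafpos 30.

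Of 13 NF-kB subunits and inhibitors 10 were higher in vcaf and 0 lower, against 53.3% and 14.2% of all genes, with a median of 0.66 against 0.38. Median-of-ratios scaling gave 4 higher and 1 lower, against 23.6% and 24.6%. Rela, the p65 subunit, averaged 118 ± 7.11 CPM in vcaf and 65.7 ± 3.34, 89.6 ± 6.58 and 70.4 ± 5.49 in icaf, m2cafneg and m2cafpos, a log2 fold change of 0.66 ± 0.078 (limma adjusted p = 1.83e-05). Ikbkb, a kinase of the inhibitors, and Bcl3, an atypical inhibitor, were higher by 0.78 ± 0.11 and 1.19 ± 0.20, and the latter no longer passed with the epithelial covariate (limma adjusted p = 0.0502). In m2cafpos against m2cafneg 6 of 13 were lower and 0 higher, against 22.6% and 3.51% of all genes. The lower count was 2 without m2cafneg 31 and 3 without m2cafpos 27. It was 1 with median-of-ratios scaling and 0 with the epithelial covariate, against 8.29% and 0.822% of all genes. In icaf 1 was higher (Nfkbiz) and 1 lower (Rela), against 12.1% and 14.2% of all genes, the latter count being 0 without icaf 27, icaf 30, m2cafneg 31 or m2cafpos 31 and the former 2 without m2cafneg 30, m2cafpos 27, vcaf 27 or vcaf 30.

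Genes known to respond to TNF were called in both directions. Of 24 tested, 8 were higher and 10 lower in vcaf, against 53.3% and 14.2% of all genes. In icaf 6 were higher and 6 lower, against 12.1% and 14.2%. Between m2cafpos and m2cafneg 5 were higher and 7 lower in the former, against 3.51% and 22.6%. In vcaf Mmp3, a stromelysin, averaged 19.0 ± 8.65 CPM against 889 ± 332, 1759.6 ± 181 and 1656 ± 252, a log2 fold change of -6.19 ± 0.27 (limma adjusted p = 2.69e-09). Csf1, a macrophage growth factor, was lower there by -2.74 ± 0.12, and Sod2, a mitochondrial dismutase, was higher by 0.95 ± 0.091. The 6 lower in icaf became 2 without icaf 27 or icaf 30, and the 5 higher in m2cafpos became 2 without m2cafneg 30 or m2cafneg 31 and 1 without m2cafpos 27 or m2cafpos 30. Of 8 genes of TNF shedding and the RANKL pathway, 4 were higher and 3 lower in vcaf, against 53.3% and 14.2% of all genes. The sheddase gene Adam17 was lower by -0.59 ± 0.079 (limma adjusted p = 5.2e-05), its inhibitor Timp3 was higher by 1.76 ± 0.18 (adjusted p = 4.69e-06), and Ctsk, the cathepsin of bone matrix, was lower by -2.85 ± 0.13 (adjusted p = 3.39e-09). In icaf 3 were lower and 0 higher, against 14.2% and 12.1% of all genes, where 2 were higher without icaf 31 and 1 without m2cafneg 31. In m2cafpos against m2cafneg only Timp3 was higher and 0 were lower, against 3.51% and 22.6% of all genes. The Timp3 call ended without m2cafneg 27, m2cafneg 31 or any m2cafpos library.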

How the data were processed

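RNA sequencing of 12 libraries (4 sorted populations from 3 mice) was used. The authors deposited CPM for all libraries, and each column sums to 1000000 over the 55487 genes left after 287 of 55774 lines that repeat a gene were dropped (0 differ). Per the submitters' processing notes, bcl2fastq, DRAGEN and mm10 were used. The counting tool and strand handling: not given in the sources used here. The title 27_vacf was taken to mean the vcaf library from mouse 27. Every value was a whole multiple of 1 read within 0.001 reads (100% of values), which gave whole reads per gene and the totals. Intervals and floors cover counting error only, since reads carried no molecular identifiers.

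Differences were tested with limma 3.58.1 in R 4.3.3 on log2(CPM + 1) values (4 groups of 3, trend, two-sided, 8 residual and 4.293 prior degrees of freedom). The filter kept 15456 genes that reached 1 CPM in 3 or more libraries, and p was adjusted by Benjamini-Hochberg within each comparison, threshold 0.05. The pseudocount understates changes of low genes. The alternatives were a pseudocount of 0.1 CPM, no filter, a filter of 5 CPM, median-of-ratios scaling, edgeR 4.0.16 (quasi-likelihood, TMM) on whole reads, the mouse as a block, the mean epithelial marker level as a covariate, and leaving out each library. For pathway genes they were added after the values were seen. The limma and edgeR steps were tested on simulated data. Mouse numbers paired the libraries. Deviations from population means correlated with a median r of 0.293 (0.0843 to 0.452, 18 pairs) within a mouse. Between mice it was -0.149 (-0.363 to 0.0746, 36 pairs). Deviations cancel out within a population, so the negative value between mice follows from the positive one and adds nothing to it. Level per kilobase used merged exon lengths of GENCODE M21. Members that passed a main comparison and averaged at least 5 CPM in a population are given by library, others by means or counts, and up to 3 genes per pathway list by smallest adjusted p. Members and lists were chosen with earlier results of these data known.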

Additional observations from a re-analysis of the deposited data

How the results depend on the processing

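Of the 101 member calls over 8 comparisons, 100 were kept with a pseudocount of 0.1 CPM, 84 with no filter, all 80 that could be tested with a filter of 5 CPM, 84 with median-of-ratios scaling, 85 with edgeR on whole reads, 101 with the mouse as a replicate block, 48 with the epithelial covariate and 75 with every library left out in turn. Among the 75 are the calls of Tnfrsf13b in vcaf and in vcaf against icaf, which could be tested in only 9 of the 12 turns. Pairing by mouse ended no call, and 11 further member results passed with it. In m2cafpos against m2cafneg these were Tnfrsf11b and Tnfsf8, which made 4 higher, and Tnfrsf18 and Tnfrsf19, which were lower. In the other main comparisons they were Tnfsf8 and Tnfrsf14, lower in vcaf, and Tnfsf13, lower in icaf. The rest were between pairs of populations. Counts of members moved by more than 1.5 times as follows. Higher in vcaf were 5 with a filter of 5 CPM (17 members tested), 5 with median-of-ratios scaling and 3 with the covariate; lower in vcaf were 11 with that scaling. In icaf the covariate gave 1 higher and 3 lower. In m2cafpos against m2cafneg 1 was higher with a filter of 5 CPM and 1 with the covariate, while lower members were 2 with no filter, 3 with median-of-ratios scaling, 2 with edgeR and 0 with the covariate. The shares of all genes with no filter, a filter of 5 CPM or edgeR are not given, so counts under those settings stand alone. For the block only the share higher in m2cafpos than m2cafneg is given (4.68%). Between pairs the covariate left 1 (icaf and m2cafneg), 6 (vcaf and icaf) and 9 (vcaf and m2cafpos). Over the libraries left out, higher and lower members ranged from 6 to 8 and 7 to 9 in vcaf, 2 to 5 and 4 to 9 in icaf, and 2 to 3 and 2 to 6 in m2cafpos against m2cafneg, and pairs from 10 to 14 (icaf and m2cafneg), 6 to 10 (icaf and m2cafpos), 14 to 17 (vcaf and icaf), 10 to 11 (vcaf and m2cafneg) and 13 to 18 (vcaf and m2cafpos). Signs turned for Tnfrsf1a in vcaf against icaf (-0.11 with median-of-ratios scaling, -0.10 with edgeR) and, with the covariate, for Tnf (0.071), Tnfrsf18 (0.19) and Tnfrsf19 (0.31) in m2cafpos against m2cafneg, Tnfsf10 in icaf against m2cafneg (0.11), Tnfsf12 in vcaf against m2cafpos (0.012), and Tnfrsf18 (-0.29) and Tnfrsf19 (-0.49) in vcaf against icaf; the cause was not tested. For the pathway lists, median-of-ratios scaling, edgeR and the covariate gave 7, 6 and 7 adaptors and 4, 4 and 6 NF-kB genes higher in vcaf. Lower in m2cafpos were 0, 1 and 0 adaptors, 1, 1 and 0 NF-kB genes, and 3, 3 and 1 response genes. With that scaling and the covariate, 23.6% and 20.4% of all genes were higher in vcaf. The shares lower in m2cafpos than m2cafneg were 8.29% and 0.822%. The 9 members below the filter were not tested in the main analysis.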
